A study of Mus musculus with 12 samples.

Results

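The genes described here are 47 mouse genes of DNA replication and of the step from G1 into S phase. They were chosen by name for their roles, with earlier results of these data known, and were found as rows in the 2 deposited tables. All 47 were listed among the 43280 entries of the Control and 2MUT table, and 46 among the 23930 entries of the 2-HG table. By role, 11 belong to origin recognition and licensing, 6 to helicase activation, 8 to primase and the replicative polymerases, 10 to the sliding clamp, clamp loader, single-strand binding and Okazaki fragment joining, 5 to nucleotide supply, 5 to E2F factors and cyclin E, and 2 to replication-coupled chromatin assembly. The RNA-seq libraries came from MEF cells, which are fibroblasts that had been taken from C57BL/6 mouse embryos at day 13.5 and had become immortal by themselves over serial passages, in 4 groups of 3 libraries. 2MUT cells stably expressed human IDH2 with the cancer-associated substitution R172S from a retroviral vector under puromycin selection, and Control cells carried the vector without it. 2-HG(+) cells carried no introduced gene and were cultured for 24 h with 300 μM of octyl-(R)-2HG, a form of 2-hydroxyglutarate that enters cells, and 2-HG(-) cells were their reference. By the sample labels the 2-HG(-) cells received DMSO, whereas the text of the study calls them non-treated. 2-HG is the metabolite that mutant IDH2 makes, so one comparison follows lasting expression of the mutant and the other a day of exposure to its product. No library came from cells with introduced wild-type IDH2. In 2MUT the substitution therefore cannot be told apart from added IDH2 or from differences between separately transduced cells.

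A cell copies its DNA once in each cycle. In G1, the origin recognition complex, Cdc6 and Cdt1 load the MCM2-7 helicase on origins, and geminin holds Cdt1 back once S phase has begun. Cdc45 and the GINS complex then turn the loaded helicase on, polymerase alpha with primase starts each strand, polymerases delta and epsilon extend it on the PCNA clamp, and many genes of these steps are transcribed under E2F factors when cyclin E and its kinase release them from the retinoblastoma proteins.

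Because many of these genes are known E2F targets, their promoters were read from the RefSeq promoter table of GRCm38.p6, which gives 250 bases before and 50 after a start, and 38 of the 47 genes had an entry. An E2F-type 8-mer, TTTCCCGC, TTTCGCGC, TTTGCCGC or TTTGGCGC on either strand, was found for 14 of the 38 (36.8%), beside 704 of 27025 genes of the table (2.6%). For 8 of the 14 a match lay upstream of the start. The stretches below show such matches in capitals, with overlapping matches run together, for members whose stretch holds no annotated exon base. Each is given from 5′ to 3′ on the strand of the gene, and the sequences are shown because these genes are described with their values below.
Mcm6, chr1:128359720-128359840, minus strand: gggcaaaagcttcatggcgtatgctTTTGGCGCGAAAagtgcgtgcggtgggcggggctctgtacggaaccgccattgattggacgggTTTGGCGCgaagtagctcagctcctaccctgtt
Mcm5, chr8:75109331-75109392, plus strand: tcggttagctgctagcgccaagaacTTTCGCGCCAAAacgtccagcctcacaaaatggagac
Cdc6, chr11:98907988-98908045, plus strand: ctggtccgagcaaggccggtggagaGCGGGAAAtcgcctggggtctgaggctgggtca
Pola1, chrX:93632261-93632318, minus strand: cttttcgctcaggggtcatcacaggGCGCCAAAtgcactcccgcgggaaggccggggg

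The CCAAT box, searched as CCAAT on either strand, was found for 23 of the 38 (60.5%) and for 41.1% of all genes of the table. The CHR element TTTGAA, a motif known from late cell cycle genes, was found for 7 of the 38 (18.4%) and for 20.2% of all genes. In the following stretches the capitals mark CCAAT or its complement ATTGG, for 2 MCM subunits and for the large and the small subunit of ribonucleotide reductase, whose values are compared below. A match describes letters and was not tested as a binding site.
Mcm2, chr6:88898926-88898980, minus strand: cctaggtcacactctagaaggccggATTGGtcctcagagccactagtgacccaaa
Mcm3, chr1:20820315-20820454, minus strand: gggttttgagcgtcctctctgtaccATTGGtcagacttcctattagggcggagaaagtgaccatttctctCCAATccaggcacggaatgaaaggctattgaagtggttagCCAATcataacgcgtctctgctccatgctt
Rrm1, chr7:102441579-102441679, plus strand: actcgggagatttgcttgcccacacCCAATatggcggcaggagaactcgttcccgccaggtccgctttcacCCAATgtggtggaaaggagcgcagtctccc
Rrm2, chr12:24708179-24708233, plus strand: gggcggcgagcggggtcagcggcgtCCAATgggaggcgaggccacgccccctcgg

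Values are RPM, reads on a gene per 1000000 reads on genes of the library, from an Ion AmpliSeq kit that amplifies a short target of each transcript. The Control and 2MUT libraries held 6472439 to 7313602 reads and the 2-HG libraries 14959318 to 18363768, so that 3 reads were worth 0.41 to 0.464 RPM in the former and 0.163 to 0.201 RPM in the latter. Fibroblast genes such as Col1a1 and Vim were abundant in every library, whereas Fap and Lum were at 0 to 1.57 RPM, as was S100a4 where it was listed. The 12 fibroblast markers summed to 15041 to 17011 RPM in Control and 13378 to 13822 in 2MUT, and the 11 listed in the other table to 21646 to 23290 in 2-HG(-) and 15256 to 16280 in 2-HG(+). Summed epithelial markers stayed at or under 4.24 RPM and endothelial markers at or under 3.09 RPM in every library, with Epcam, Krt18 and Tie1 at 0 in all of them, and haematopoietic markers summed to 7.16 to 14.6 RPM, most of it Cd68. The part of these marker levels in the results was not tested. The mouse Idh2 entry was 70.9, 80.8 and 80.1 RPM in Control and 42.6, 51.1 and 55.2 RPM in 2MUT, and since it is not given whether its target reads the human transgene, it does not check the label. The RNA-seq was carried out in triplicate, and what a replicate was is not given for it in the sources used here, so the p-values measure the spread between these libraries, which may be technical. In bulk RNA, fewer cells in S phase and less RNA of a gene per cell cannot be told apart.

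In 2MUT cells, most of the DNA replication genes were lower than in Control. Of the 42 genes that averaged 1 RPM or more, 32 fell and 1, Gins4, rose at a Benjamini-Hochberg adjusted p under 0.05 in limma, and 9 passed in neither direction. Over all 11065 genes tested, 17.3% were lower and 16.5% higher. The median log2 fold change of the 42 genes was -1.00, beside 0.01 over all genes tested, and 41 of the 42 values were negative. All 3 2MUT libraries lay below all 3 Control libraries for 34 of the 42 and above them for 1, where the shares over all genes were 24% and 23.5%. Of the genes that fell, 23 had a mean under 50% of that of Control. Summed over the 42 genes, the libraries held 1968 ± 175 RPM (SD, n = 3) in Control and 1063 ± 40 RPM in 2MUT.

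With 2-HG, most of these genes were higher than in 2-HG(-). Of 44 genes tested, 42 rose, none fell, and 2, Gins4 and E2f1, did not pass, beside 16.1% higher and 16.7% lower of the 10384 genes tested. All 44 values were positive in limma, so that none could be lower at any threshold. The count of members lower was also 0 at an adjusted p under 0.05 in edgeR and in DESeq2. The median log2 fold change was 0.81, beside -0.02 over all genes tested. The libraries of the groups did not overlap for 42 of the 44, all of them higher with 2-HG, where over all genes 22.2% were higher and 24.1% lower without overlap. Of the genes that rose, 17 had a mean more than 2 times that of 2-HG(-). Their summed level was 1659 ± 46.5 RPM (SD, n = 3) in 2-HG(-) and 2971 ± 85.7 RPM in 2-HG(+).

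**Figure D1:**
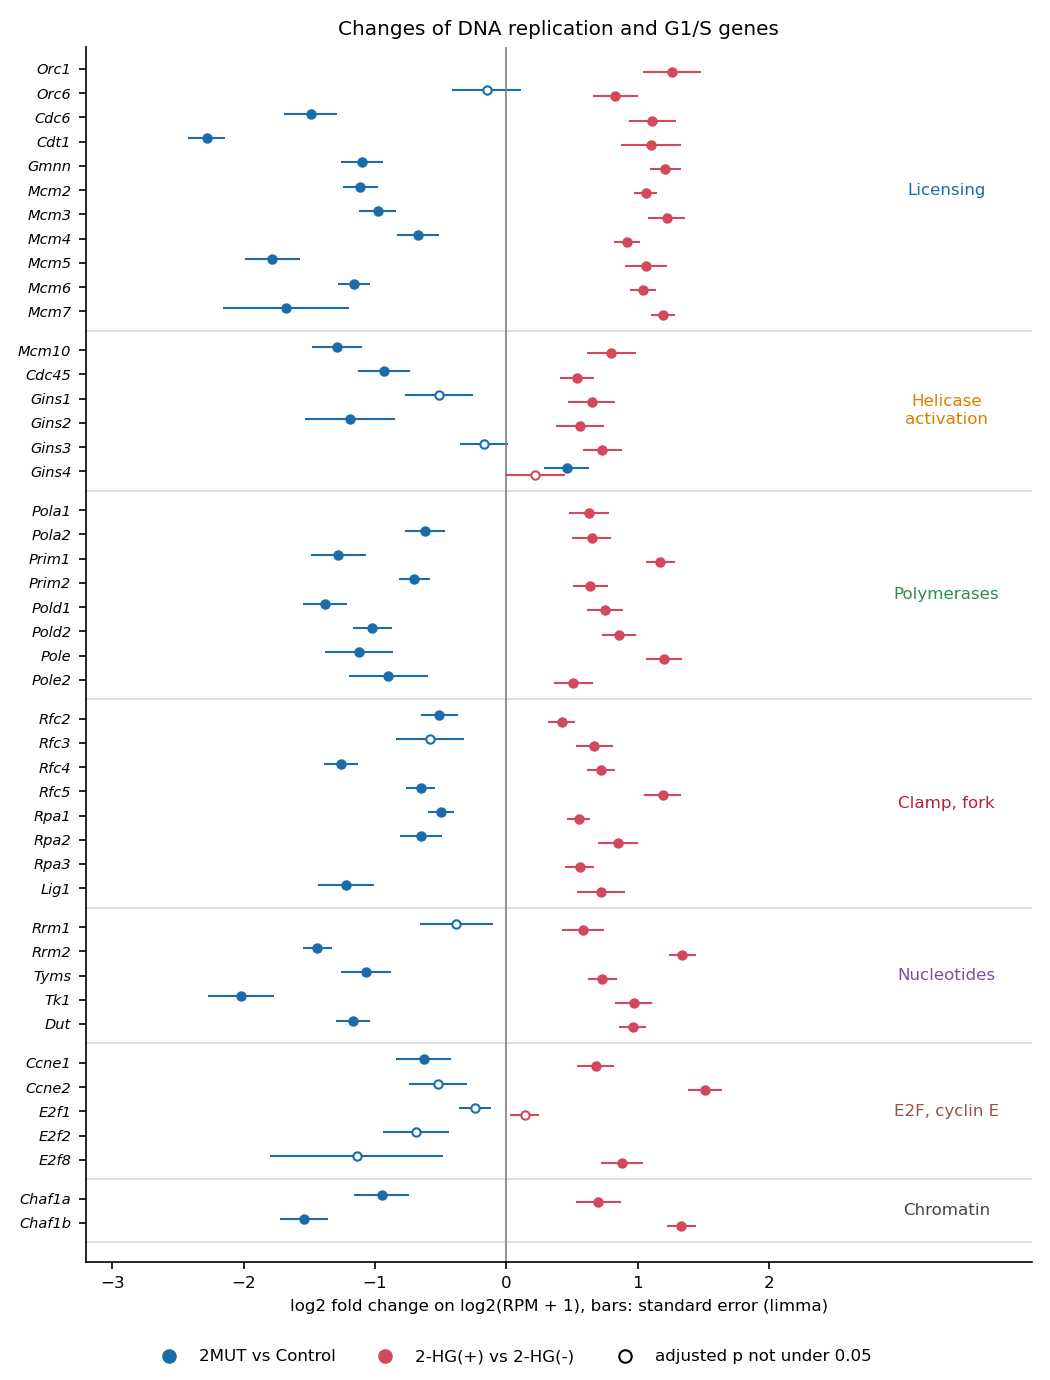
Log2 fold change of each tested gene, on log2(RPM + 1), in 2MUT against Control (blue) and 2-HG(+) against 2-HG(-) (red), with the standard error from limma as bars and open symbols where the adjusted p was not under 0.05. Blue points lie left of 0 for 41 of 42 genes and red points right of 0 for 44 of 44.

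Among the licensing genes, 9 of 10 tested fell in 2MUT, with a median log2 fold change of -1.14, and 11 of 11 rose with 2-HG, with a median of 1.10. Cdt1 (chr8:122568015-122573554), which brings the MCM helicase to the origin, changed most in 2MUT. It was at 60.5, 69.9 and 67.7 RPM in Control and 11.9, 15.1 and 11.7 RPM in 2MUT. Every 2MUT library was far below every Control library. The mean of 2MUT was 19.5% of that of Control, with a log2 fold change of -2.28 (SE 0.14, adjusted p = 1.4e-06). With 2-HG, Cdt1 was at 10.7, 5.35 and 10.9 RPM in 2-HG(-) and 19.6, 20.9 and 18.3 RPM in 2-HG(+), with a log2 fold change of 1.10 (SE 0.23, adjusted p = 0.0052). The groups did not overlap, although the second 2-HG(-) library lay below the other two. Gmnn (chr13:24751845-24761923), which encodes the Cdt1 inhibitor geminin, moved the same way as Cdt1 in each comparison. Its level was 62.3, 64.8 and 49.5 RPM in Control and 30.3, 22.3 and 28.6 RPM in 2MUT, a log2 fold change of -1.10 (SE 0.16, adjusted p = 0.00035). With 2-HG it went from 38.7, 47 and 35.9 RPM to 93.1, 97.3 and 93.4 RPM, a log2 fold change of 1.21 (SE 0.12, adjusted p = 7.2e-05). The 3 libraries of 2-HG(+) were close together and far above those of 2-HG(-). Cdc6, the loading factor shown above with its E2F-type match, fell in 2MUT (log2 fold change -1.49, SE 0.20, adjusted p = 0.00028) and rose with 2-HG (1.11, SE 0.18, adjusted p = 0.0015).

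The 6 subunits of the MCM2-7 ring, the core of the replicative helicase, all fell in 2MUT and all rose with 2-HG. Their log2 fold changes ran from -1.78 (Mcm5) to -0.67 (Mcm4) in 2MUT and from 0.92 (Mcm4) to 1.22 (Mcm3) with 2-HG. Mcm5 (chr8:75109569-75128439) was at 24.4, 43 and 33.6 RPM in Control and 8.65, 10.7 and 7.57 RPM in 2MUT. The Control libraries were spread widely, yet the lowest was more than 2 times the highest 2MUT library. The log2 fold change was -1.78 (SE 0.21, adjusted p = 0.00011), and with 2-HG it was 1.06 (SE 0.16, adjusted p = 0.00081), from 19.5, 15 and 14.5 RPM to 29.4, 37.3 and 38.9 RPM. Mcm3 (chr1:20802968-20820312) had tight Control libraries at 37, 36 and 36.4 RPM, beside 15.8, 18.9 and 19.4 RPM in 2MUT, a log2 fold change of -0.98 (SE 0.14, adjusted p = 0.00033). It rose from 27.1, 22.2 and 27.9 RPM in 2-HG(-) to 51.1, 66 and 67.5 RPM in 2-HG(+), a log2 fold change of 1.22 (SE 0.14, adjusted p = 0.00021). In neither comparison did the groups overlap. Mcm6, with E2F-type matches on both sides of a CCAAT complement in the stretch shown, had log2 fold changes of -1.16 (SE 0.12, adjusted p = 5e-05) and 1.04 (SE 0.10, adjusted p = 5.5e-05), and Mcm2 of -1.11 (SE 0.13, adjusted p = 8.1e-05) and 1.06 (SE 0.09, adjusted p = 4.6e-05).

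Mcm7 (chr5:138164583-138172422) rested partly on one library. It was at 149, 185 and 167 RPM in Control and 89.1, 87.8 and 16.6 RPM in 2MUT, so that the third 2MUT library stood far below the other two. The log2 fold change was -1.68 (SE 0.48, adjusted p = 0.019), and -0.90 (adjusted p = 0.00085) without that library. Without the second Control library it was -1.61 with an adjusted p of 0.055 in limma. With 2-HG, Mcm7 was even across libraries, at 103, 105 and 101 RPM and 242, 239 and 226 RPM, a log2 fold change of 1.19 (SE 0.09, adjusted p = 1.3e-05). Exons of Mcm7 overlap those of Ap4m1 and Cops6 on the other strand and of the microRNAs Mir25 and Mir93, and whether counting used strand is not given in the sources used here, so its reads cannot be assigned with certainty. For the origin recognition complex, Orc6 was low in Control and 2MUT, at 1.46 to 2.99 RPM, with a log2 fold change of -0.15 (SE 0.26, adjusted p = 0.69), and rose with 2-HG (0.83, SE 0.17, adjusted p = 0.0049), and Orc1, which was under 1 RPM in each Control and 2MUT library, was tested with 2-HG alone (1.26, SE 0.22, adjusted p = 0.0024). Exons of Orc6 overlap those of Vps35 and exons of Orc1 those of Gm12743, both on the other strand.

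**Figure D2:**
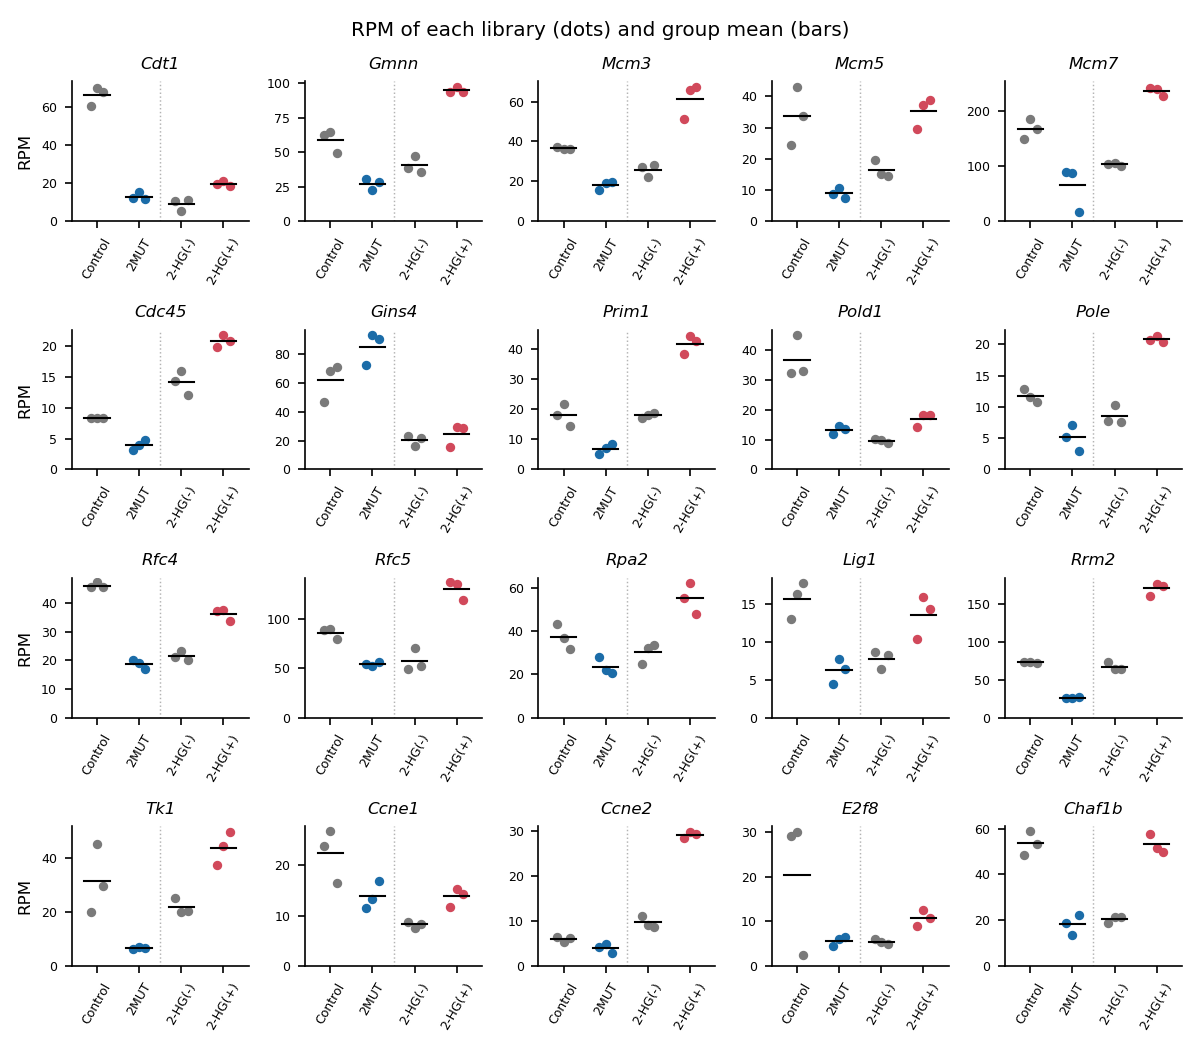
RPM of each library (dots) and the mean of each group (bars) for the members given library by library, with separate axes for each gene and a dotted line between the 2 tables, whose levels are not compared. Gray marks Control and 2-HG(-), blue 2MUT and red 2-HG(+). The third 2MUT library of Mcm7, at 16.6 RPM, and the third Control library of E2f8, at 2.32 RPM, stand apart from their groups.

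Of the helicase activation genes, 3 of 6 fell in 2MUT, 1 rose and 2 passed in neither direction, with a median log2 fold change of -0.72. Over all genes tested in 2MUT, 17.3% were lower and 16.5% higher. With 2-HG 5 of 6 rose, with a median of 0.60, beside 16.1% higher of all genes tested. GINS is a complex of 4 subunits, and their values differed within 2MUT. Gins4 (chr8:23226616-23237659) was at 46.9, 68.4 and 71 RPM in Control and 72.2, 93 and 90.4 RPM in 2MUT. The lowest 2MUT library was just above the highest Control library. The log2 fold change was 0.46 (SE 0.17, adjusted p = 0.049), close to the threshold, and was 0.28 with an adjusted p of 0.15 in limma without the first Control library. The call was also lost without the second or the third 2MUT library. Gins2, in contrast, fell (-1.19, SE 0.34, adjusted p = 0.02), on levels of 5.33, 11.1 and 6.43 RPM and 1.24, 4.68 and 2.75 RPM, and its call was lost without the second Control or the first 2MUT library. Gins1 (-0.51, SE 0.26, adjusted p = 0.16) and Gins3 (-0.17, SE 0.18, adjusted p = 0.48) did not pass. With 2-HG, Gins1, Gins2 and Gins3 rose by log2 fold changes of 0.65, 0.56 and 0.73, the first 2 of which lost the call in 4 of the 6 fits that left out a library, whereas Gins4 had overlapping groups at 23.2, 16.2 and 21.8 RPM and 15.7, 29 and 28.8 RPM and a log2 fold change of 0.22 (SE 0.23, adjusted p = 0.51). The change of Gins4 with 2-HG was 0.50 (adjusted p = 0.042 in limma) without the first 2-HG(+) library, but 0.07 without the second and 0.08 without the third. Cdc45 (chr16:18780447-18811987), the partner of GINS in the active helicase, was at 8.29, 8.4 and 8.34 RPM in Control and 3.09, 3.95 and 4.82 RPM in 2MUT (-0.93, SE 0.20, adjusted p = 0.0047). It was at 14.3, 16 and 12.1 RPM in 2-HG(-) and 19.9, 21.7 and 20.8 RPM in 2-HG(+) (0.54, SE 0.13, adjusted p = 0.013), without overlap in either comparison, but with 2-HG the call was lost without the third 2-HG(-) library (adjusted p = 0.061 in limma) or the second 2-HG(+) library (0.052). Exons of Cdc45 and Gins2 overlap those of Ufd1 and Gse1 on the other strand, so that their reads are uncertain. Mcm10, which helps the helicase start, fell in 2MUT (-1.29, SE 0.19, adjusted p = 0.00051) and rose with 2-HG (0.80, SE 0.19, adjusted p = 0.011).

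All 7 primase and polymerase genes tested fell in 2MUT, with a median log2 fold change of -1.02, and all 8 rose with 2-HG, with a median of 0.70. Pold1 (chr7:44532746-44548849), the catalytic subunit of polymerase delta, was at 32.3, 45.2 and 33 RPM in Control and 12.1, 14.6 and 13.5 RPM in 2MUT. No library of one group reached the other, and the log2 fold change was -1.38 (SE 0.17, adjusted p = 0.00013). With 2-HG it rose by 0.75 (SE 0.14, adjusted p = 0.0032). Prim1 (chr10:128015168-128030037), the catalytic subunit of primase, which lays the RNA primer, was at 18.2, 21.8 and 14.5 RPM in Control and 5.25, 7.03 and 8.53 RPM in 2MUT, a log2 fold change of -1.28 (SE 0.21, adjusted p = 0.00096). Its groups were further apart with 2-HG relative to their spread, at 17, 18.1 and 18.7 RPM and 38.3, 44.5 and 42.6 RPM, a log2 fold change of 1.17 (SE 0.11, adjusted p = 7.1e-05). Pole (chr5:110286306-110337474), the catalytic subunit of polymerase epsilon, was at 7.79, 10.4 and 7.57 RPM in 2-HG(-) and 20.6, 21.4 and 20.3 RPM in 2-HG(+), a log2 fold change of 1.20 (SE 0.14, adjusted p = 0.00025), and fell in 2MUT (-1.12, SE 0.26, adjusted p = 0.0062). An antisense gene overlaps exons of Pole. Prim2 and Pola2, partners of Prim1 in the same complex, had smaller changes of -0.70 and -0.62 in 2MUT and of 0.64 and 0.65 with 2-HG. Pola1, the polymerase alpha subunit whose upstream stretch is shown above, was tested with 2-HG alone and rose (0.63, SE 0.15, adjusted p = 0.012), a call that was lost without the third 2-HG(-) library (0.54, adjusted p = 0.056 in limma). Pole2, the partner of Pole, was low, and its changes of -0.90 (SE 0.30, adjusted p = 0.038) in 2MUT and 0.51 (SE 0.15, adjusted p = 0.025) with 2-HG lost the call in 4 and in 5 of the 6 fits that left out a library. Its exons overlap those of Gm49384, a coding gene on the same strand.

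At the clamp and the fork, 6 of 7 genes fell in 2MUT, with a median log2 fold change of -0.65, and 8 of 8 rose with 2-HG, with a median of 0.69. The 4 small subunits of replication factor C, which loads the clamp, had unequal changes in 2MUT, with Rfc4 lowest at -1.26 (SE 0.13, adjusted p = 5e-05), then Rfc5 at -0.65 (SE 0.11, adjusted p = 0.00096) and Rfc2 at -0.51 (SE 0.14, adjusted p = 0.014), while Rfc3 did not pass (-0.58, SE 0.26, adjusted p = 0.11). The call of Rfc2 in 2MUT was lost without the second Control or the third 2MUT library. Rfc4 (chr16:23113943-23127737) was at 45.6, 47.1 and 45.4 RPM in Control and 20.2, 19.2 and 16.8 RPM in 2MUT. Both groups were tight and lay far apart. With 2-HG the order was another, and Rfc5 (chr5:117378103-117389047) had the highest change of the 4, from 49.1, 70.2 and 52.2 RPM to 137, 135 and 118 RPM (1.19, SE 0.14, adjusted p = 0.00023), beside 0.72 for Rfc4, 0.67 for Rfc3 and 0.42 for Rfc2. The order of these subunits was not tested. The large subunit Rfc1, which is not among the 47 genes, fell in 2MUT (-0.53, SE 0.10, adjusted p = 0.0021) and did not pass with 2-HG (0.19, SE 0.12, adjusted p = 0.28). Lig1 (chr7:13277283-13311433), the ligase that joins Okazaki fragments, was at 13, 16.4 and 17.8 RPM in Control and 4.48, 7.76 and 6.47 RPM in 2MUT (-1.22, SE 0.21, adjusted p = 0.0013), without overlap, and rose with 2-HG (0.72, SE 0.18, adjusted p = 0.013), a call that was lost without the second 2-HG(+) library (0.60, adjusted p = 0.053 in limma). Of the genes of single-strand binding proteins, Rpa1 was at -0.50 (SE 0.10, adjusted p = 0.003) and Rpa2 at -0.65 (SE 0.16, adjusted p = 0.011) in 2MUT. Rpa2 (chr4:132768332-132778752) was at 24.9, 32.4 and 33.7 RPM in 2-HG(-) and 55.3, 62.4 and 48 RPM in 2-HG(+), with a gap between the groups and a log2 fold change of 0.85 (SE 0.15, adjusted p = 0.0019). Rfc2, Rfc4, Rfc5 and Lig1 share exon bases on the other strand with Lat2, Eif4a2, Wsb2 and Zswim9, and Rpa1 on its own strand with the microRNA gene Gm47300, so that their reads are uncertain.

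Of the nucleotide supply genes, 4 of 5 fell in 2MUT, with a median log2 fold change of -1.17, and 5 of 5 rose with 2-HG, with a median of 0.96. Rrm2 (chr12:24708241-24714146), the small subunit of ribonucleotide reductase, was even within each group, at 73.5, 73.4 and 72.6 RPM in Control and 26.3, 26.1 and 26.8 RPM in 2MUT. The mean of 2MUT was 36.1% of that of Control, a log2 fold change of -1.44 (SE 0.11, adjusted p = 6.1e-06). With 2-HG it was at 73.2, 64.2 and 63.7 RPM and 161, 177 and 175 RPM, a log2 fold change of 1.34 (SE 0.10, adjusted p = 1.4e-05). Rrm1 (chr7:102441695-102469771), the large subunit, behaved less clearly. Its 2MUT libraries at 8.96, 5.71 and 4.68 RPM overlapped the Control libraries at 7.4, 12.8 and 6.15 RPM (-0.38, SE 0.28, adjusted p = 0.33), and with 2-HG it rose (0.58, SE 0.16, adjusted p = 0.019) but lost the call in 4 of the 6 fits that left out a library. Tk1 (chr11:117815526-117826092), the thymidine kinase of the salvage pathway, was at 20, 45.3 and 29.7 RPM in Control and 6.33, 7.03 and 6.61 RPM in 2MUT. The Control libraries differed by more than 2 times among themselves and the 2MUT libraries hardly at all, and the log2 fold change was -2.02 (SE 0.25, adjusted p = 0.00013). With 2-HG it rose from 25.4, 20.2 and 20.2 RPM to 37.4, 44.4 and 49.7 RPM (0.97, SE 0.14, adjusted p = 0.00085). Its exons overlap those of Afmid on the other strand. Tyms, which makes thymidylate, and Dut, which removes dUTP, fell in 2MUT by log2 fold changes of -1.07 and -1.17 and rose with 2-HG by 0.73 and 0.96.

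Of the E2F and cyclin E genes, 1 of 5 fell in 2MUT and 4 passed in neither direction, among the 9 members in all that did not pass, and 3 of 4 rose with 2-HG. Ccne1 (chr7:38097984-38107534), cyclin E1, was at 23.8, 26.8 and 16.4 RPM in Control and 11.6, 13.3 and 16.8 RPM in 2MUT, and the highest 2MUT library was above the lowest Control library. The log2 fold change was -0.63 (SE 0.21, adjusted p = 0.034), and the call was lost in 4 of the 6 fits that left out a library. Ccne2 (chr4:11191351-11204779), cyclin E2, had the highest log2 fold change of the 44 genes with 2-HG on log2(RPM + 1), although by the ratio of mean RPM the low gene Orc1 was higher, at 3.68. It was at 11.2, 9.16 and 8.71 RPM in 2-HG(-) and 28.5, 29.8 and 29.5 RPM in 2-HG(+), 3.02 times the mean of 2-HG(-), with a log2 fold change of 1.51 (SE 0.13, adjusted p = 3.4e-05). In 2MUT it did not pass (-0.52, SE 0.22, adjusted p = 0.094), although its libraries at 4.17, 4.98 and 2.89 RPM lay below those of Control at 6.51, 5.41 and 6.29 RPM. The exons of Ccne2 overlap those of Ints8 on the other strand. E2f1, an activating E2F factor, passed in neither comparison, with log2 fold changes of -0.24 (SE 0.12, adjusted p = 0.15) in 2MUT and 0.14 (SE 0.11, adjusted p = 0.38) with 2-HG. The 95% intervals of these changes were -0.51 to 0.02 and -0.12 to 0.39. E2f8 (chr7:48866429-48881596), a repressing E2F factor, was at 29.1, 29.9 and 2.32 RPM in Control and 4.48, 6 and 6.47 RPM in 2MUT. The third Control library was below all of the 2MUT libraries and the other two far above them, so the change of -1.14 (SE 0.66, adjusted p = 0.21) did not pass, and it was -2.21 (adjusted p = 1.2e-06) without that library, but -0.62 (adjusted p = 0.55) and -0.60 (adjusted p = 0.54) without the first or the second Control library. With 2-HG, E2f8 rose from 5.94, 5.28 and 4.86 RPM to 8.93, 12.6 and 10.8 RPM (0.88, SE 0.16, adjusted p = 0.0023). Exons of E2f8 overlap those of Gm2788 on the other strand. E2f2 did not pass in 2MUT (-0.69, SE 0.25, adjusted p = 0.057).

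Both subunits measured of chromatin assembly factor 1, which puts histones on new DNA, fell in 2MUT and rose with 2-HG. Chaf1b (chr16:93883901-93906115) was at 48.7, 58.8 and 53.5 RPM in Control and 18.8, 13.3 and 22.2 RPM in 2MUT, a log2 fold change of -1.54 (SE 0.18, adjusted p = 9.1e-05). It was at 18.9, 21.4 and 21.4 RPM in 2-HG(-) and 57.6, 51.8 and 50.1 RPM in 2-HG(+), a log2 fold change of 1.33 (SE 0.11, adjusted p = 3.4e-05). The groups were wide apart in both comparisons. Chaf1a moved less, at -0.95 (SE 0.21, adjusted p = 0.0052) and 0.70 (SE 0.17, adjusted p = 0.012). Exons of Chaf1a overlap those of Ubxn6 on the other strand.

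**Figure D3:**
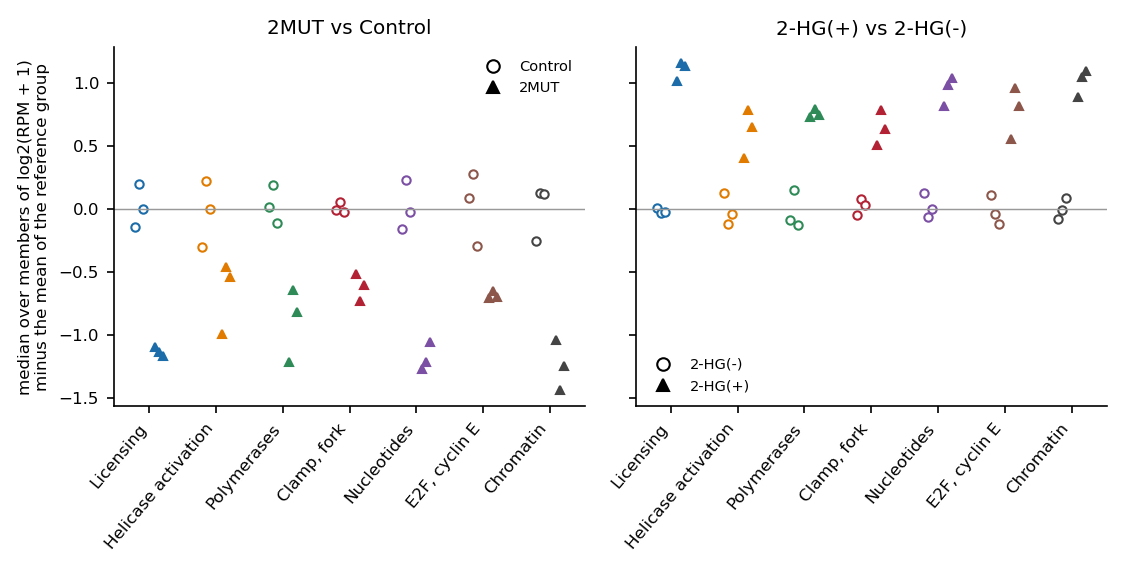
Median over the tested genes of a role of log2(RPM + 1) minus the mean of the reference group, for each library of Control and 2MUT (left) and of 2-HG(-) and 2-HG(+) (right), with open circles for the reference group and triangles for the other. For the licensing genes the 2MUT libraries sit at -1.17 to -1.10 and the 2-HG(+) libraries at 1.02 to 1.16.

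Whether the changes of the 2 experiments differed was tested directly, as the change in 2MUT minus the change with 2-HG, for the 41 genes tested in both tables. The difference was lower than 0 for 38 of them at an adjusted p under 0.05 in limma and higher for none, while 3, Gins4, E2f1 and E2f8, did not pass. Of the 9610 genes tested, 19.5% were lower and 19.9% higher. At an unadjusted p under 0.05 the count of members higher was 0, as it was in edgeR and DESeq2 after adjustment. The median difference was -1.88, beside 0.05 over all genes tested. Cdt1 had the largest difference of the 41, at -3.38 (SE 0.29, adjusted p = 1.1e-06), followed by Tk1 at -2.98 (SE 0.31, adjusted p = 7e-06). For Ccne2, which passed with 2-HG and not in 2MUT, the difference was -2.02 (SE 0.24, adjusted p = 1.7e-05). For Gins4 it was 0.25, with a 95% interval of -0.45 to 0.94, and -0.03 without the first 2-HG(+) library. For E2f8 it was -2.02 (SE 0.84, adjusted p = 0.072). It was -3.09 (adjusted p = 6.3e-07 in limma) without the third Control library, but -1.50 and -1.48 (adjusted p = 0.17 for each) without the first or the second.

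Of the 41 genes, 32 fell in 2MUT and rose with 2-HG, 7 rose with 2-HG and passed in neither direction in 2MUT, Gins4 rose in 2MUT and did not pass with 2-HG, and E2f1 passed in neither. The log2 fold change was below 0 in 2MUT and above 0 with 2-HG for 40 of the 41. Across genes, which are not independent replicates, the changes of the 2 comparisons had a Pearson r of -0.55 and a Spearman rho of -0.56 (n = 41 genes), as a description. The comparisons share no library, although genes of 1 process are measured in the same libraries. The median size of the change was 1.02 in 2MUT and 0.83 with 2-HG on the log2 scale.

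**Figure D4:**
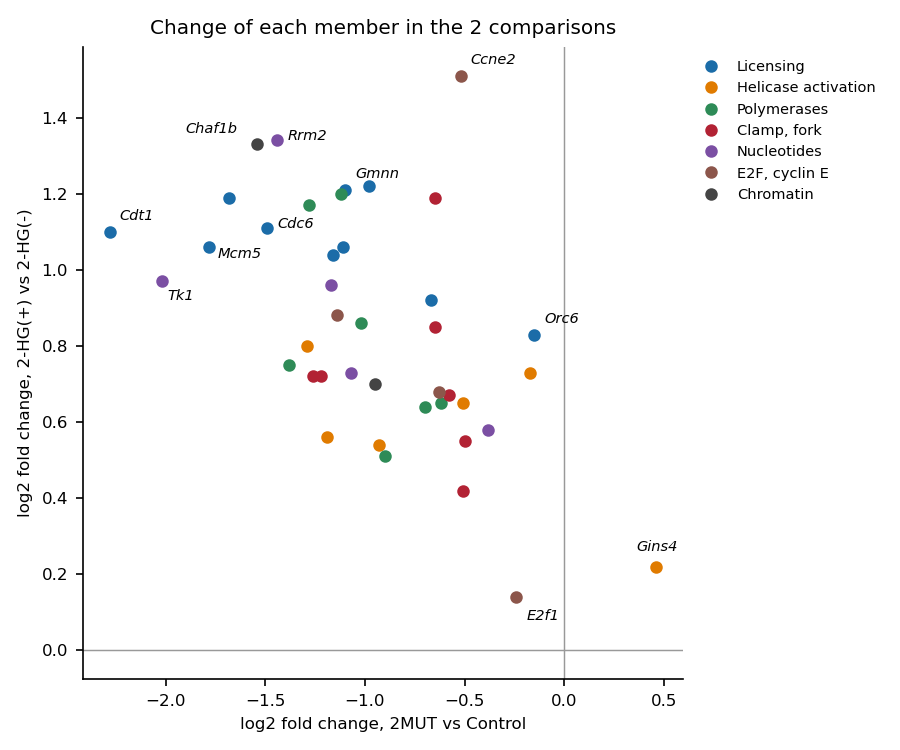
Log2 fold change with 2-HG against log2 fold change in 2MUT for the 41 genes tested in both tables, colored by role, on log2(RPM + 1). All but 1 point lie in the upper left, with Gins4 to the right of 0 and E2f1 nearest to the origin among the other 40.

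Other genes of the same processes, listed by role with earlier results of these data known, were examined in the same fits. Of 50 further replication and G1/S genes, 17 of 45 tested fell and 3 rose in 2MUT, with a median log2 fold change of -0.30, and 32 of 49 rose and 1 fell with 2-HG, with a median of 0.65. The 3 that rose in 2MUT were E2f3 (0.60), Rb1 (0.60) and Rbl2 (0.46), of which Rb1 and Rbl2 encode retinoblastoma family proteins that restrain E2F, and Rbl2 was the 1 that fell with 2-HG (-0.94). Ccna2, the S phase cyclin A2, fell in 2MUT by a log2 fold change of -2.38 (SE 0.17), followed by Uhrf1 at -2.11 (SE 0.18), which guides maintenance methylation, and E2f7 at -2.05 (SE 0.18), a repressing E2F factor. With 2-HG the largest changes of this list were those of Recql4 at 1.54 (SE 0.17), a helicase of replication initiation, Dscc1 at 1.35 (SE 0.16), which acts in an alternative clamp loader, and Dbf4 at 1.28 (SE 0.14), the activator of the Cdc7 kinase. The 6 values passed at an adjusted p of at most 0.00023 in limma.

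Genes of mitosis, listed in the same way, moved in the same directions. All 22 tested of 25 fell in 2MUT, with a median log2 fold change of -1.81, led by Cenpf (-2.27), Cdc20 (-2.26) and Bub1b (-2.18), genes of the kinetochore and the spindle checkpoint. With 2-HG 21 of 24 rose, with a median of 0.77, led by Aurka (1.25), a spindle kinase, and by Bub1 (1.10) and Nuf2 (1.05), which act at kinetochores. The difference of the changes was lower than 0 for 22 of 22 mitosis genes. The part of cell cycle distribution in the changes of the replication genes was not tested.

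**Figure D5:**
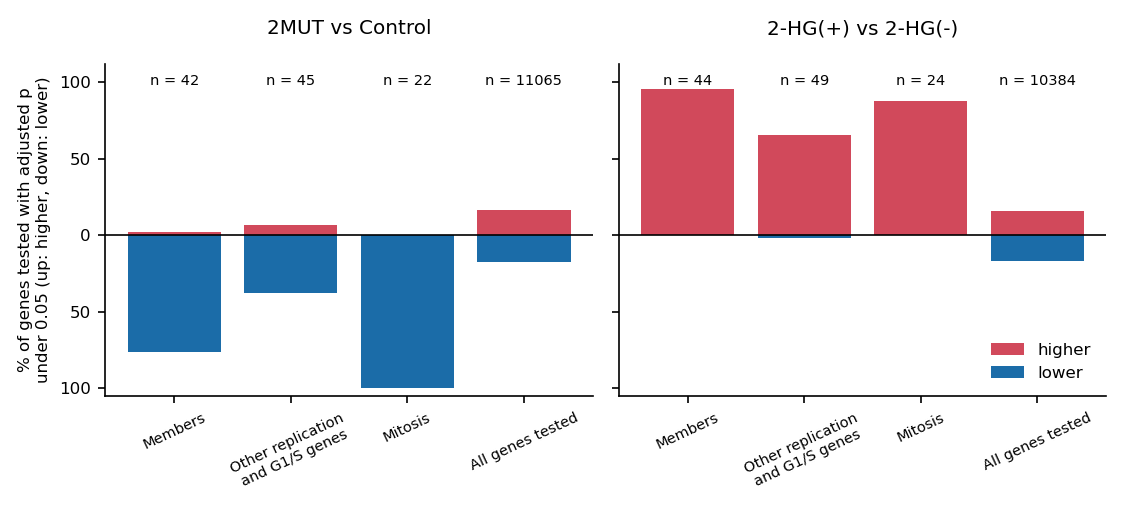
Percent of genes tested that were higher (red, upward) or lower (blue, downward) at an adjusted p under 0.05 in limma, for the DNA replication and G1/S members, the further replication and G1/S genes, the mitosis genes and all genes tested, with the number tested above each bar. In 2MUT 76.2% of members were lower, beside 17.3% of all genes, and with 2-HG 95.5% were higher, beside 16.1% of all genes.

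Of the 7 inhibitors of cyclin-dependent kinases, which hold cells in G1, 14.3% were higher and 42.9% lower in 2MUT, beside 16.5% and 17.3% of all genes tested. With 2-HG 28.6% were higher and 71.4% lower, beside 16.1% and 16.7%. In 2MUT Cdkn2b rose (0.73), with overlapping groups, Cdkn1c (-1.66), Cdkn2c (-0.74) and Cdkn2d (-0.83) fell, and Cdkn1a (0.16), Cdkn1b (-0.66) and Cdkn2a (0.09) did not pass. With 2-HG, Cdkn1a (2.88) and Cdkn2d (0.39) rose, and Cdkn1b (-0.57), Cdkn1c (-0.53), Cdkn2a (-0.86), Cdkn2b (-1.07) and Cdkn2c (-0.40) fell. Cdkn1a, which encodes p21, was at 5.66, 6.15 and 4.86 RPM in 2-HG(-) and 113, 30 and 30.3 RPM in 2-HG(+). The first 2-HG(+) library was far above the other two, which were themselves above all of the 2-HG(-) libraries, and the log2 fold change was 2.25 (adjusted p = 1.2e-05) without it.

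The promoter letters were set beside the changes as a description. In 2MUT the median log2 fold change was -1.19 for the 12 tested genes with an E2F-type 8-mer and -1.02 for the 21 without, and with 2-HG it was 1.04 for 13 genes and 0.81 for 22. With a CCAAT box it was -0.98 for 19 genes and -1.19 for 14 without in 2MUT, and 0.85 for 21 and 0.74 for 14 with 2-HG. With the CHR element it was -0.98 for 6 genes and -1.16 for 27 without in 2MUT, and 0.86 for 5 and 0.81 for 30 with 2-HG. Cdt1 and Pold1 had their E2F-type match after the start, at positions 33 and 40, whereas for Tk1, Chaf1b and Rrm2 no E2F-type match of these letters lay in the window.

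A few members were too low to be tested. In the Control and 2MUT table Orc1, Pola1, Rpa3 and Fen1 had a mean under 1 RPM, and Pcna, the sliding clamp itself, was listed at 0 in all 6 libraries, which gives no level for it. In the 2-HG table Fen1 and E2f2 were under 1 RPM, and Pcna was not listed. Pola1 and Rpa3 averaged 15.7 and 46.5 RPM over the libraries of that table. Orc6 and Rrm1, low among the Control and 2MUT libraries at means of 2.02 and 7.62 RPM, averaged 49.6 and 125 RPM there. Whether a low value comes from the cells or from how a gene was measured in a table was not tested. Just outside the filter were Pola1, at 0.888, 1.42 and 1.5 RPM in Control and 0.309, 0.586 and 1.1 RPM in 2MUT, and E2f2, at 0.762, 0.334 and 0.36 RPM in 2-HG(-) and 0.793, 1.14 and 0.98 RPM in 2-HG(+). Just inside it was Pole2, at 2.52, 3.42 and 2.19 RPM in Control, 0.309, 1.61 and 1.24 RPM in 2MUT, 1.03, 1.27 and 0.841 RPM in 2-HG(-) and 1.92, 1.92 and 1.9 RPM in 2-HG(+). Fold changes of such genes on log2(RPM + 1) understate the change in RPM.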

How the data were processed

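The data are 12 RNA-seq libraries of MEF cells, 3 in each of 4 groups, and the sample labels gave the groups. Per the study's methods, the authors aligned Ion AmpliSeq reads with TMAP to an AmpliSeq mouse transcript reference and obtained counts of each gene from the AmpliSeqRNA plug-in 5.2.0.3 of Torrent Suite Software 5.2.2, and they deposited RPM in a table for each experiment. Each library summed to 1000000 within rounding. Of the nonzero values other than the most abundant, which were not checked, 100% came to whole reads within 0.25 read, so that reads could be recovered. The number of columns left without a sample was 0. The genome build behind the AmpliSeq reference is not given in the sources used here.

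Changes were fitted within a table with limma 3.58.1 (R 4.3.3), after the logarithm log2(RPM + 1), allowing a mean-variance trend and no covariate. Genes averaging 1 RPM or more over the 6 libraries were kept. The two-sided p-values were adjusted by Benjamini-Hochberg over all genes tested, with a threshold of 0.05 and no limit on fold change. The added 1 makes the fold changes of low genes smaller than those of RPM. The difference of the changes was a contrast over the 12 libraries for genes kept in each table. The members and lists were chosen with earlier results of these data known. Library values are given, in each role and comparison, for the 2 members with the largest log2 fold change in size that passed the threshold and averaged 10 RPM or more in the higher group (1 for chromatin assembly), for the 2 with the largest difference of the changes, and, chosen after their values were seen, for some members with a library that stands apart, with overlapping groups or close to the filter. From the other replication genes and the mitosis genes 3 are named by the same measure, and all CDK inhibitors are named.

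Alternatives were an added value of 0.1, no filter, a filter at 10 RPM, median-of-ratios scaling, quantile normalization, a per-gene test without moderation, a block for the replicate number, each library left out in turn, and edgeR 4.0.16 (quasi-likelihood, TMM) and DESeq2 1.42.0 on the recovered reads. The fits were checked on simulated reads. The simulation gave every gene the same dispersion, so it does not cover genes with a library that stands apart, such as Mcm7 and E2f8. Gene positions and exons are from GENCODE M21 on GRCm38 and promoters from RefSeq on GRCm38.p6. Where each AmpliSeq target lies was not analysed here. Tables were handled with pandas 2.3.3 and plots drawn with matplotlib 3.10.9.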

Additional observations from a re-analysis of the deposited data

How the results depend on the processing

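The directions and counts of the members were stable under most alternatives. In 2MUT the number of members that fell was 23 with the unmoderated test and 34 with no filter at the extremes, and 26 of 31 with a filter at 10 RPM. The number that rose was 1 in the main fit and 0 with an added value of 0.1, with the filter at 10 RPM and with the unmoderated test. With 2-HG the number that rose was 42 except with no filter (28), with the unmoderated test (30), with the filter at 10 RPM (34 of 36 tested) and with the replicate block (40). The difference of the changes was lower than 0 for 27 of 29 members with the filter at 10 RPM and for 37 to 39 under the other alternatives. The median log2 fold change with 2-HG was 0.88 in edgeR and 0.89 in DESeq2, beside 0.81. The median difference was -2.12 with an added value of 0.1, -2.12 in edgeR and -2.10 in DESeq2, beside -1.88. Over all genes, the counts higher and lower in 2MUT went from 1826 and 1915 to 1021 and 1223 with the unmoderated test, and with 2-HG from 1668 and 1737 to 941 and 1110 with no filter and to 1098 and 1139 with the unmoderated test. The cause was not tested.

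With each library left out in turn, 27 to 34 members fell and 0 to 1 rose in 2MUT, 36 to 42 rose with 2-HG, and 37 to 39 had a lower difference. The medians ran from -1.02 to -0.90 in 2MUT, from 0.76 to 0.88 with 2-HG and from -1.96 to -1.78 for the difference. Of 33 members called in 2MUT, 27 kept the call in every such fit and 6 lost it in at least 1. These were Ccne1 (-0.83 to -0.50, without Control 1 or 2 or 2MUT 1 or 2), Gins2 (-1.52 to -0.84, without Control 2 or 2MUT 1), Gins4 (0.28 to 0.58, without Control 1 or 2MUT 2 or 3), Mcm7 (-2.08 to -0.90, without Control 2), Pole2 (-1.10 to -0.60, without Control 1 or 2 or 2MUT 1 or 3) and Rfc2 (-0.64 to -0.39, without Control 2 or 2MUT 3). Of 42 called with 2-HG, 35 kept it and 7 lost it, namely Cdc45 (0.44 to 0.62, without 2-HG(-) 3 or 2-HG(+) 2), Gins1 (0.54 to 0.81) and Rrm1 (0.47 to 0.74), both without 2-HG(-) 2 or 3 or 2-HG(+) 2 or 3, Gins2 (0.42 to 0.67, without 2-HG(-) 1 or 3 or 2-HG(+) 2 or 3), Lig1 (0.60 to 0.88, without 2-HG(+) 2), Pola1 (0.54 to 0.79, without 2-HG(-) 3) and Pole2 (0.44 to 0.59, without any library but 2-HG(-) 2), while Gins4 (0.07 to 0.50) gained it without the first 2-HG(+) library (0.50) and was at 0.07, 0.07 and 0.08 without 2-HG(-) 2 or 2-HG(+) 2 or 3. Of 38 differences, 37 kept the call, and Rrm1 (-1.18 to -0.67) lost it in 7 of 12 fits. E2f2 in 2MUT gained a call without the third Control library, as did E2f8 in 2MUT (-2.21 to -0.60) and in the difference (-3.09 to -1.48), whose values nearest to 0 were those without Control 1 or 2. The direction turned for Orc6 in 2MUT without the second Control library (0.03, in a range of -0.29 to 0.03) and for the difference of Gins4 without the first 2-HG(+) library (-0.03, in a range of -0.03 to 0.40).

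Same-numbered libraries did not deviate together, with correlations of 0.0708, 0.0293 and 0.0319 in the 2MUT comparison and -0.457, -0.158 and 0.0572 in the 2-HG comparison. Differently numbered pairs of the 2-HG comparison ran from -0.414 to 0.48. Deviations from the mean of 3 libraries depend on each other, so these correlations cannot decide whether libraries were handled together. With the replicate block 32 members fell and 1 rose in 2MUT, 40 rose with 2-HG, where Gins2 and Pole2 lost the call, and 37 differences passed, where Rrm1 lost it. Values of under 3 reads, up to 0.464 RPM, cannot be told from 0 by depth alone, and this counts sampling only.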
